A study of Homo sapiens with 3 samples.

Results

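The tricarboxylic acid (TCA) cycle enzymes and the 4 subunits of succinate dehydrogenase were followed by ribosome profiling (Ribo-seq) in cells that express WT or mutant p53. The 9 genes CS, IDH3A, OGDH, SDHA, SDHB, SDHC, SDHD, FH and MDH2 were taken by symbol from the 63241 genes of the count table. All 9 were among the 19820 genes that passed the filter on low counts.

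The cells were HEK293T, an epithelial line from human embryonic kidney whose SV40 large T antigen binds p53. The groups compared numbered 3 and expressed the WT, G245S or R273H p53 construct, with 3 dishes of 10 cm in each group. Both substitutions lie in the DNA-binding domain. The labels call the cells stable lines and also speak of transient expression, and both mutants are labelled as treated with the wt construct, so the groups follow the sample titles. The study's methods describe stable lines made with lentivirus and selected with puromycin. Cells without any p53 construct were not analysed here. All groups received cycloheximide, which halts elongating ribosomes, for 2 min before harvest and at 100 μg/mL in the washes. Micrococcal nuclease (3 U for each μg of RNA, 30 min) trimmed the mRNA, and footprints came from the monosome fraction.

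The dishes of a group carried barcoded linkers and were pooled at reverse transcription, so each group was its own pool, and a difference between groups cannot be told apart from a difference between pools. The p-values below measure the spread between dishes, which may be in part technical. Libraries held 18.719 to 24.595 M expected counts, and the biological coefficient of variation was 2.58%. CDKN1A and MDM2, both induced by p53, served to check the labels of WT against the mutants. Neither was called between G245S and R273H (adjusted p = 0.088 and 0.981, edgeR), so which mutant is which was not checked. In CPM (counts scaled to the library total), group means of CDKN1A were 61.1 in WT, 16.1 in G245S and 13.9 in R273H, and those of MDM2 were 860, 76.8 and 76.7. KRT18, a keratin of epithelial cells, was between 109.6 and 115.6 CPM in the group means. Of the 5 epithelial markers 4 were tested, and KRT8 was called higher in R273H (33.9, 35.3 and 43.5 CPM in WT, G245S and R273H), while KRT19 was at or near 0. EPCAM (3.91, 4.01 and 4.88 CPM) and CDH1 (6.66, 6.04 and 7.21 CPM) were lower than KRT8 and KRT18 and were not called against WT. Of the embryonic kidney markers, PAX2 was called higher in R273H (5.43, 6.84 and 6.92 CPM) and PAX8 was near 0. COL1A1, a fibroblast collagen, was lower in both mutants (32.5, 28.2 and 27.5 CPM), whereas COL1A2, DCN and the endothelial and blood markers had group means of at most 0.278 CPM. The part of these markers in the results was not tested.

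The TCA cycle oxidizes acetyl groups in the mitochondrial matrix. Citrate synthase (CS) joins acetyl-CoA to oxaloacetate, isocitrate dehydrogenase (IDH3A is its catalytic subunit) and the 2-oxoglutarate dehydrogenase complex (OGDH is its first enzyme) carry out the oxidative decarboxylations, and succinate dehydrogenase, fumarase (FH) and malate dehydrogenase (MDH2) return succinate to oxaloacetate. Succinate dehydrogenase is also complex II of the respiratory chain. SDHA holds the flavin and the succinate site, SDHB carries the iron-sulfur clusters, and SDHC and SDHD anchor the enzyme in the inner membrane. A footprint count reflects how many ribosomes sat on the mRNAs of a gene, so it does not separate the amount of mRNA from its translation. RNA-seq of the same dishes was not used here.

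Several of these genes have close copies elsewhere in the genome, which matters for fragments as short as a footprint. Each coding region was cut into all windows of 30 nt, and the share of windows found in a transcript of another gene was counted (GENCODE v44, GRCh38). The share was 95.8% for SDHD, 92.6% for SDHA, 64.9% for SDHC and 60.1% for CS. It was 14.5% for FH, 0.46% for OGDH, 0.25% for SDHB and 0 for IDH3A and MDH2. Part of this comes from protein-coding genes annotated on the same strand of the same locus, which hold 88.7% of the windows of SDHA (ENSG00000286001) and 63.2% of those of SDHD (ENSG00000255292). Annotated pseudogenes held 82.0% of the SDHD windows, 64.9% of the SDHC windows, 52.2% of the CS windows and 45.5% of the SDHA windows.

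The pairs below show how little separates such a gene from its copy. Each is a window of 30 bases, 5′ to 3′, in which gene and copy differ at base 16 alone, counted from 1 at the 5′ end and set in capitals. A fragment that lies within the window has the same sequence in both only if it leaves out that base. A fragment of 30 nt there holds the base, so these windows are not shared with the copy shown. The pairs do not show the bases outside the window.
CS, exon 2, chr12:56286603-56286632, minus strand: ttgttcttgcagcccGgcatgccagtgctt
ENSG00000273654, copy of CS, chr19:18030684-18030713, plus strand: ttgttcttgcagcccAgcatgccagtgctt
SDHA, exon 2, chr5:223500-223529, plus strand: acaggaacccgaggtTttcacttcactgtt
SDHAP1, copy of SDHA, chr3:195986557-195986586, minus strand: acaggaacccgaggtGttcacttcactgtt
SDHD, exon 3, chr11:112088912-112088941, plus strand: tcagtgttttgctccTgggtctgcttccgg
ENSG00000238084, copy of SDHD, chr1:25398935-25398964, plus strand: tcagtgttttgctccCgggtctgcttccgg
The changes from gene to copy are G16A for CS, T16G for SDHA and T16C for SDHD.

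In each library 61.5% to 63.7% of the values above 0 were fractional. How reads that fit several genes were counted is not given in the sources used here, so the counts of SDHA, SDHC, SDHD and CS are uncertain. The rows that share windows were lower than those of the members. For CS, at 445 CPM in WT, ENSG00000144785 (12.5% of the windows, same strand of the same locus) had 50.6 CPM and ENSG00000273654 had 11.9 CPM. ENSG00000108958 had 10.8 beside 297 for SDHC, and ENSG00000286001 had 11.2 beside 170 for SDHA. For SDHD the largest was ENSG00000255292, with 32.3 CPM in WT beside 112. None of the genes that held at least 10% of the windows of CS, SDHA, SDHC or SDHD was called in either mutant.

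The loci lie on 6 chromosomes (GRCh38). CS spans chr12:56271699-56300391 on the minus strand with 11 exons and 1401 coding nt, and IDH3A chr15:78131498-78171945 on the plus strand with 11 exons and 1101 coding nt. OGDH spans chr7:44606572-44709066 (plus strand, 23 exons) and is the longest of the set, with 3072 coding nt. SDHA spans chr5:218303-257082 (plus strand, 15 exons, 1995 coding nt) and SDHB chr1:17018664-17054032 (minus strand, 8 exons, 843 coding nt). SDHC spans chr1:161314381-161363206 (plus strand, 6 exons, 510 coding nt) and SDHD chr11:112086824-112120016 (plus strand, 4 exons, 480 coding nt), and these anchors are the shortest coding regions of the set. FH spans chr1:241497511-241519799 (minus strand, 10 exons, 1533 coding nt) and MDH2 chr7:76048051-76067508 (plus strand, 9 exons, 1017 coding nt). IDH3A overlaps CIB2 and ACSBG1 on the other strand, and CS overlaps CNPY2-AS1. The handling of strand in the counts is not given in the sources used here, so reads of such pairs cannot be told apart.

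To compare levels between genes, CPM was divided by coding length (CPM per kb, a footprint density). In WT, MDH2 had the highest density at 672 ± 14.1 CPM per kb (SD, n = 3 dishes), followed by SDHC at 582 ± 12.1 and CS at 318 ± 1.84. SDHB at 233 ± 6.19 and SDHD at 233 ± 2.80 overlapped between dishes, so their order is not set. FH stood at 122 ± 6.28, SDHA at 85.2 ± 2.27 and IDH3A at 85.1 ± 2.45, and the last pair again overlapped. OGDH was lowest at 21.6 ± 0.942 CPM per kb. In the mutants MDH2, SDHC, CS and OGDH held the same places. IDH3A, at 96.1 ± 2.87 CPM per kb in G245S and 96.6 ± 1.94 in R273H, had every dish above every dish of SDHA, which was at 83.7 ± 2.15 and 86.7 ± 3.02. Other genes held 92.6% of the SDHA windows and 0 of the IDH3A windows. How such reads were counted is not given, so this order holds as counted only.

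Against WT p53, 4 of the 9 genes rose in G245S (CS, IDH3A, FH and SDHB), 1 fell (SDHC) and 4 were not called (OGDH, SDHA, SDHD and MDH2). In R273H, 3 rose (CS, IDH3A and FH), 1 fell (SDHC) and 5 were not called (OGDH, SDHA, SDHB, SDHD and MDH2). A gene was called at an adjusted p under 0.05 by edgeR's quasi-likelihood test. Of all genes tested, 24.7% were called in G245S (12.6% higher and 12.1% lower) and 28.8% in R273H (14.2% higher and 14.6% lower). The share called rises with depth, and among the 3418 genes whose mean count was no lower than that of OGDH, the lowest of the 9 at 1442, it was 49.6% in G245S and 55.1% in R273H. The counts of 5 of 9 and 4 of 9 are near these shares. The median log2 fold change of the 9 genes was 0.050 in G245S and 0.067 in R273H, beside −0.000686 and −0.0024 for all genes tested. Both comparisons use the same WT dishes. The median of genes at the depth of the members was not taken, so these medians do not set the 9 genes apart from such genes. The changes were small, ranging between −6.42% and 15.4% for G245S and between −9.22% and 13.5% for R273H. Summed, the 9 genes took 0.224% to 0.228% of the counts of a library in WT, 0.232% to 0.237% in G245S and 0.232% to 0.236% in R273H.

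**Figure D1:**
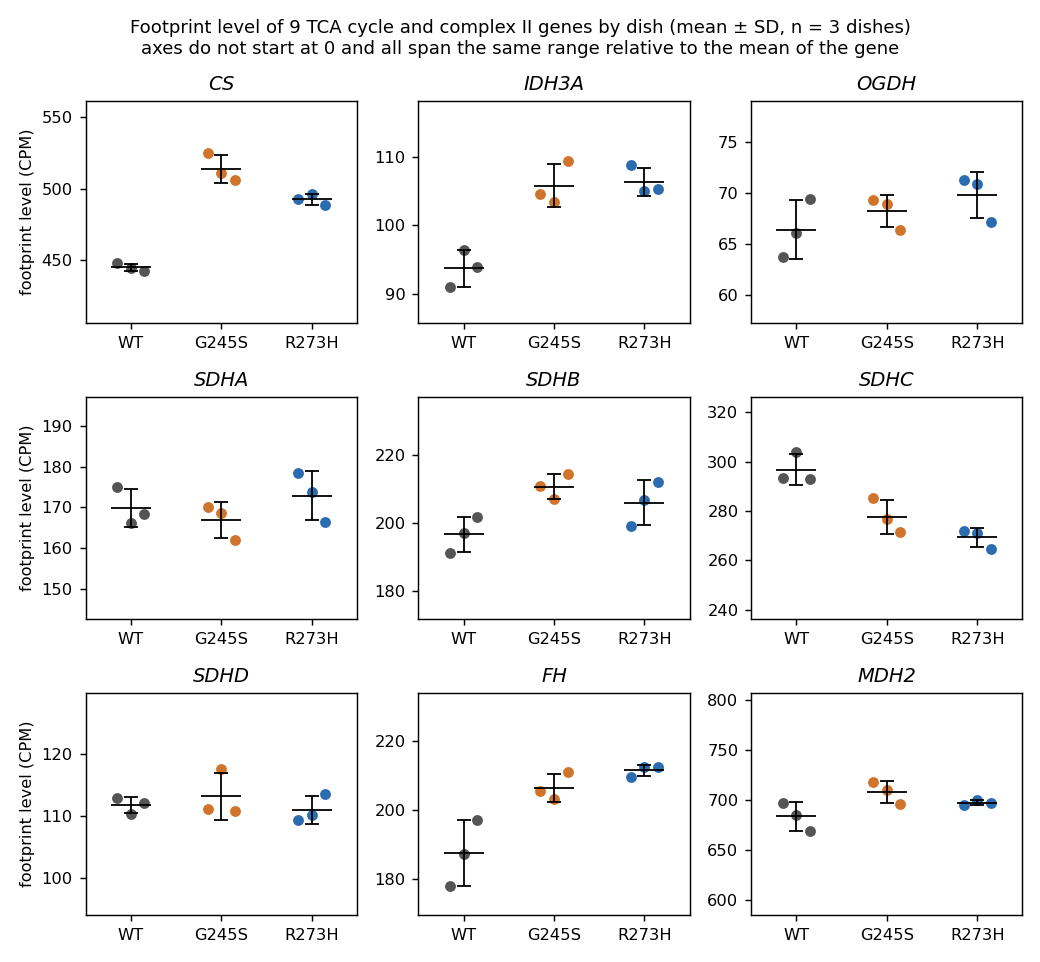
Footprint level (CPM, vertical axis, not starting at 0) of the 9 genes in each dish of WT (grey), G245S (orange) and R273H (blue), with lines for the mean and bars for the SD (n = 3 dishes). The mutant dishes of CS, IDH3A and FH sit above all WT dishes, those of SDHC sit below them, and the dishes of OGDH, SDHA, SDHD and MDH2 overlap between the groups.

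CS, which catalyses the entry of acetyl groups into the cycle, had 448, 444.5 and 443 CPM in the WT dishes, 524.5, 510.5 and 506 in the G245S dishes and 493, 496 and 488 in the R273H dishes. The 3 groups did not overlap, with G245S highest and WT lowest. Its log2 fold change was 0.21 ± 0.023 (SE) in G245S (adjusted p = 8.68e-08, edgeR) and 0.15 ± 0.023 in R273H (adjusted p = 1.8e-05). These were 15.4% and 10.6% more footprints, the former being the largest change of the 9 genes in G245S. With the counts of its window-sharing genes added to CS, an alternative chosen after seeing the data, the log2 fold changes were 0.17 and 0.12, and both passed the test.

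IDH3A, the catalytic subunit of the NAD-dependent isocitrate dehydrogenase, had 91.0, 96.4 and 93.9 CPM in the WT dishes. It had 105, 103.5 and 109 CPM in the G245S dishes and 109, 105 and 105 in the R273H dishes. All mutant dishes lay above all WT dishes, and the mutants overlapped each other. The log2 fold change was 0.18 ± 0.035 in G245S (adjusted p = 0.00041, edgeR) and 0.18 ± 0.035 in R273H (adjusted p = 0.000173), which were 13.0% and 13.5% more footprints. Its partners IDH3B and IDH3G, the regulatory subunits of the same enzyme, were not called in either mutant, with log2 fold changes of 0.025 and −0.014 in G245S and of 0.039 and −0.076 in R273H.

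OGDH, the first component of the 2-oxoglutarate dehydrogenase complex, had 63.7, 66.1 and 69.5 CPM in WT, 69.4, 68.9 and 66.5 in G245S and 71.3, 70.9 and 67.2 in R273H. Its dishes overlapped across the groups, and its log2 fold changes of 0.039 (95% interval −0.047 to 0.12) and 0.073 (−0.010 to 0.16) did not pass the test. DLST, the second component of that complex, was at 0.0055 and −0.025 and was not called. DLD, the third component, shared with pyruvate dehydrogenase, had log2 fold changes of 0.049 in G245S, which was not called, and 0.11 in R273H, which was (adjusted p = 0.00482, edgeR). Without WT dish 3, DLD was also called in G245S (0.087, adjusted p = 0.0206).

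The 4 subunits of succinate dehydrogenase did not move one way. SDHA, the catalytic subunit, had 175, 166 and 168.5 CPM in the WT dishes, 170, 169 and 162 in G245S and 178, 174 and 166.5 in R273H. Its groups overlapped, and its log2 fold changes were −0.027 (95% interval −0.092 to 0.038) and 0.025 (−0.039 to 0.089).

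SDHB, the iron-sulfur subunit, had 191, 197 and 202 CPM in WT, 211, 207 and 214 in G245S and 199, 207 and 212 in R273H. Every G245S dish was above every WT dish, while the R273H dishes overlapped with both groups. The log2 fold change was 0.10 ± 0.030 in G245S (adjusted p = 0.0133, edgeR), and 0.067 ± 0.029 in R273H (adjusted p = 0.0881). The G245S call rested on 1 library: without WT dish 1, it was 0.080 (adjusted p = 0.0841). In R273H SDHB passed the test without WT dish 3 (0.088, adjusted p = 0.0342) or without R273H dish 1 (0.092, adjusted p = 0.0436). SDHB was thus near the threshold in both mutants, and its difference between them (log2 0.033) did not pass the test.

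SDHC, an anchor subunit, was the one member called lower as counted. It had 293.5, 304 and 293 CPM in WT, 285, 277 and 271 in G245S and 272, 271 and 265 in R273H. All mutant dishes lay below all WT dishes. The log2 fold change was −0.096 ± 0.027 in G245S (adjusted p = 0.00888, edgeR) and −0.14 ± 0.027 in R273H (adjusted p = 0.000185), or −6.42% and −9.22% in footprints. The G245S call was lost without WT dish 2 (−0.078, adjusted p = 0.0706) or without G245S dish 3 (−0.075, adjusted p = 0.0639), whereas the R273H call held without any one dish. Neither call held with a trend of coding length and GC content removed, as given below (−0.022 and −0.055).

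SDHD, the other anchor subunit, had 113, 110.3 and 112 CPM in WT, 111, 118 and 111 in G245S and 109, 110.2 and 114 in R273H. Its dishes overlapped across the groups, with log2 fold changes of 0.018 (95% interval −0.051 to 0.086) and −0.0097 (−0.077 to 0.058). The sign in R273H turned under several alternatives given in the closing section, so SDHD has no direction there.

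FH, which hydrates fumarate to malate, had 178, 187 and 197 CPM in WT, 205, 203 and 211 in G245S and 209.5, 212 and 212 in R273H. The WT dishes spread the most, yet all mutant dishes were above them. The log2 fold change was 0.14 ± 0.032 in G245S (adjusted p = 0.00138, edgeR) and 0.17 ± 0.031 in R273H (adjusted p = 8.5e-05), which were 10.2% and 12.9% more footprints.

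MDH2, which closes the cycle by oxidizing malate, had 697, 685 and 669 CPM in WT, 718, 709.6 and 696 in G245S and 694, 699 and 697 in R273H. The dishes overlapped across the groups, and its log2 fold changes of 0.050 (95% interval 0.0033 to 0.097, adjusted p = 0.112, edgeR) and 0.028 (−0.019 to 0.075, adjusted p = 0.39) did not pass the test.

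The libraries differed in how counts depended on coding length, and this moved together with the groups. Across 10886 protein-coding genes that averaged 100 counts or more, Spearman's rho between a gene's centred log2 CPM and its coding length was −0.18 to −0.14 in the WT dishes, −0.012 to 0.12 in G245S and 0.14 to 0.20 in R273H, as a description across genes that share a library. With GC content, rho was −0.19 to 0.26 in WT, −0.18 to 0.35 in G245S and −0.42 to −0.14 in R273H. The fitted trend of length and GC content was largest for the shortest of the 9 genes: for SDHC it was −0.073 in G245S minus WT and −0.085 in R273H minus WT (log2), and for SDHD it was −0.075 and −0.097. For CS, IDH3A and FH it lay between −0.015 and 0.027. The part of this trend in the results was not tested beyond refitting with the trend removed.

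With the trend removed, 6 of the 9 genes were higher and 0 lower in G245S, and likewise 6 and 0 in R273H, in place of 4 and 1 and of 3 and 1. In the same fit, 27.3% of all genes tested were called in G245S (15.6% higher and 11.8% lower) and 30% in R273H (16.6% higher and 13.4% lower). Among the 3418 genes at the depth of the members, 40.8% were higher and 17.3% lower in G245S, and 36.9% were higher and 21.3% lower in R273H. SDHC was then at −0.022 ± 0.023 in G245S (adjusted p = 0.515, edgeR) and −0.055 ± 0.022 in R273H (adjusted p = 0.0644), and no longer passed the test in either. SDHD passed it at 0.093 (adjusted p = 0.0181) and 0.087 (adjusted p = 0.0222), and MDH2 at 0.063 (adjusted p = 0.0103) and 0.074 (adjusted p = 0.00236). SDHB passed it in both, at 0.14 and 0.11. CS stood at 0.21 and 0.15, IDH3A at 0.19 and 0.18 and FH at 0.14 and 0.15. CS, IDH3A and FH thus stayed called with the trend removed, while the calls of SDHB in R273H, and of SDHC, SDHD and MDH2 in both mutants, differed.

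**Figure D2:**
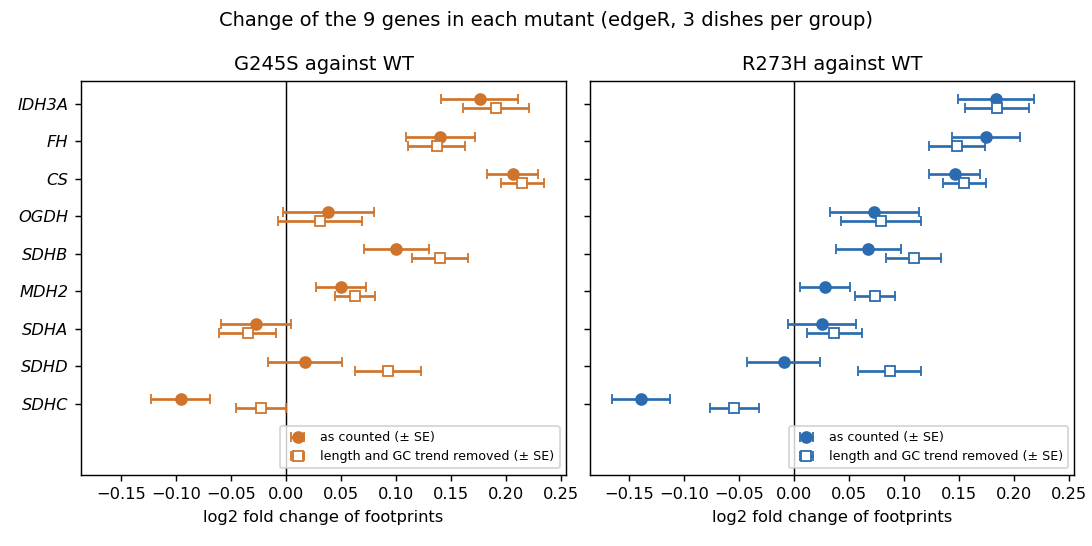
Log2 fold change of footprints (horizontal axis, ± SE) of the 9 genes in G245S (left) and R273H (right) against WT, as counted (filled circles) and with the trend of coding length and GC content removed (open squares), 3 dishes per group. CS, IDH3A and FH keep their place in both fits, while SDHC moves from −0.096 to −0.022 on the left and from −0.14 to −0.055 on the right.

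The mutants were then compared with each other. Of all genes tested, 2.59% were called between G245S and R273H (1.86% higher and 0.732% lower in G245S), and 0 of the 9 genes were, by edgeR or by DESeq2. The background was 7.78% among the 3418 genes at the depth of the members. CS came nearest: every G245S dish (506 to 524.5 CPM) was above every R273H dish (488 to 496 CPM), with a log2 difference of 0.060 ± 0.023 (95% interval 0.013 to 0.11, adjusted p = 0.173, edgeR), and it was the only 1 of the 9 with an unadjusted p under 0.05. The other 8 had adjusted p between 0.438 and 0.954, and their dishes overlapped. For these 8 the 95% intervals of the log2 difference reached from −0.12 at the lowest to 0.098 at the highest, so larger differences between the mutants were outside every interval. With dish number as a replicate block, given in the closing section, CS was called (0.060, adjusted p = 0.0333, edgeR), beside 1262 of all genes tested.

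Within succinate dehydrogenase, the density of each smaller subunit was set against that of SDHA in the same dish. Library scaling cancels there, but the trend of length and GC content does not. In WT, the SDHB density was 2.74 ± 0.135 times that of SDHA (SD, n = 3 dishes), that of SDHC 6.84 ± 0.297 times and that of SDHD 2.74 ± 0.0463 times. In G245S these ratios were 2.99 ± 0.123, 6.51 ± 0.0787 and 2.82 ± 0.0937, and in R273H 2.83 ± 0.188, 6.10 ± 0.129 and 2.67 ± 0.149. The SDHC ratio was 6.56, 7.15 and 6.80 in the WT dishes, 6.56, 6.42 and 6.55 in G245S and 5.96, 6.10 and 6.22 in R273H. The 3 groups followed one another without overlap, although the lowest WT dish (6.562) and the highest G245S dish (6.558) nearly met. Against WT, the log2 SDHC ratio differed by −0.070 in G245S and −0.165 in R273H. The fitted trend of length and GC content was −0.073 and −0.085 for SDHC, and 0.0079 and −0.011 for SDHA. The part of this trend in the ratios was not tested. The SDHB ratio of every G245S dish (2.91 to 3.13) was above every WT dish (2.59 to 2.83). An exact permutation test of 3 against 3 dishes (two-sided) cannot give a p below 0.1, and it gave 0.1 for SDHC in the 3 comparisons and for SDHB in G245S against WT. Over the 9 ratios tested the adjusted p was 0.225 to 0.6. With 3 dishes a group this test could not have passed a threshold of 0.05, and it does not show whether the ratios differ. The size of the ratios rests on the length used, and the shares of windows above apply to SDHA, SDHC and SDHD.

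**Figure D3:**
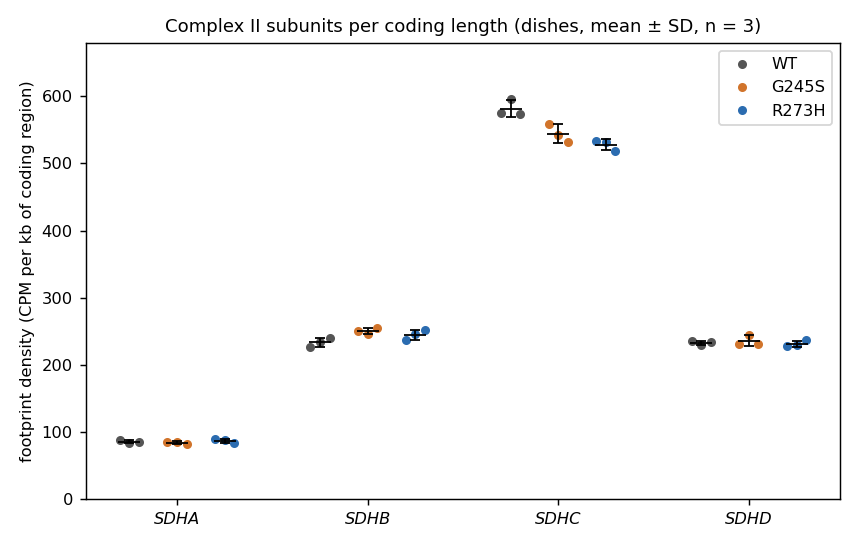
Footprint density (CPM per kb of coding sequence, vertical axis) of SDHA, SDHB, SDHC and SDHD in each dish of WT (grey), G245S (orange) and R273H (blue), with lines for the mean and bars for the SD (n = 3 dishes). SDHC has the highest density of the 4 in every dish, with means of 582 in WT, 545 in G245S and 528 in R273H, and SDHA has the lowest.

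The rest of the pathway was read from lists of genes. Among 10 other TCA cycle enzymes, 0 were higher and 1 lower in G245S, and 1 was higher and 1 lower in R273H, with a median log2 fold change of 0.015 and −0.0072. SUCLG2, a subunit of the GTP-forming succinyl-CoA synthetase, fell in both mutants (−0.18, adjusted p = 0.000689, and −0.13, adjusted p = 0.00567, edgeR). Its partner SUCLG1 was at −0.0043 and −0.0023 and was not called in either. SUCLA2, the subunit in place of SUCLG2 in the ATP-forming enzyme, and IDH2 were not called either.

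Of the 4 assembly factors of complex II, 1 was lower in G245S and 2 were lower in R273H, and none was higher. SDHAF4, which helps to place the flavinated SDHA, had 13.7 CPM in WT, 10.8 in G245S and 11.4 in R273H (log2 −0.34, adjusted p = 0.00295, and −0.26, adjusted p = 0.0147, edgeR). The R273H call of SDHAF4 was lost without WT dish 2 (−0.25, adjusted p = 0.0503) or without R273H dish 3 (−0.22, adjusted p = 0.0706), and by DESeq2 (−0.26, adjusted p = 0.0768). SDHAF1, which serves the iron-sulfur subunit, was lower in R273H (−0.33, adjusted p = 0.00247, edgeR), while its value in G245S was −0.12 and was not called. With the length and GC trend removed, the R273H values were −0.17 for SDHAF4 (adjusted p = 0.106) and −0.17 for SDHAF1 (adjusted p = 0.112), and neither passed the test.

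Of 14 genes for the entry of pyruvate, 4 were higher and 1 lower in each mutant. Pyruvate dehydrogenase makes the acetyl-CoA that CS uses. Its subunits PDHA1 (log2 0.19 and 0.18) and DLAT (0.16 and 0.19) rose in both mutants, beside 0.21 and 0.15 for CS. The complex did not rise in all its parts. PDHX, named after its values were seen, was not called in either mutant (0.0057, adjusted p = 0.941, and 0.077, adjusted p = 0.138, edgeR). DLD was called in R273H only. The kinase PDK1, named after its values were seen, also rose in both (0.19 and 0.20), and the genes that fell, PDK4 in G245S (−0.50) and MPC2 in R273H (−0.093), were named likewise. PDHB also rose (0.10, adjusted p = 0.00989, and 0.089, adjusted p = 0.0188, edgeR), but its call was lost in G245S without WT dish 2 (0.088, adjusted p = 0.0632) and in R273H without WT dish 1 (0.088, adjusted p = 0.0517), WT dish 2 (0.075, adjusted p = 0.105) or R273H dish 3 (0.065, adjusted p = 0.13).

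Of 17 genes for iron-sulfur cluster and lipoate assembly, which supply cofactors to SDHB and to the 2-oxo acid dehydrogenases, 2 were higher and 6 lower in G245S, and 1 was higher and 6 lower in R273H. FDXR, ferredoxin reductase and a known target of p53, had 99.3 CPM in WT, 12.1 in G245S and 10.1 in R273H (log2 −3.04 and −3.30). ISCU, the scaffold on which the clusters are built, had 50.4, 27.7 and 27.5 CPM (−0.86 and −0.88). HSPA9, a mitochondrial chaperone that takes part in cluster transfer, rose from 921 CPM in WT to 1061 and 1048 (0.21 and 0.19), and GLRX5, named after its values were seen, rose in G245S (0.18). The changes of FDXR and ISCU were several times larger than those of the 9 genes.

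Of the 13 genes for the counterparts outside the mitochondria and for anaplerosis, 12 were tested, since ME3 did not pass the filter. In G245S 7 were higher and 2 lower, and in R273H 8 were higher and 2 lower. PCK2, which makes phosphoenolpyruvate from oxaloacetate in mitochondria, rose from 20.9 CPM in WT to 30.9 and 28.9 (log2 0.56 and 0.47), and ME2, a mitochondrial malic enzyme, rose from 87.7 to 101 and 107 (0.20 and 0.28). GLS2, a glutaminase and known p53 target, fell from 9.51 CPM to 4.11 and 3.46 (−1.21 and −1.46). MDH1, the cytosolic counterpart of MDH2, fell in both (−0.077, adjusted p = 0.0201, and −0.12, adjusted p = 0.000267, edgeR), and it was named here after its value was seen. Between the mutants, GOT2, a mitochondrial aspartate aminotransferase also named after its value was seen, was the one gene of these lists that was called (higher in G245S by a log2 of 0.092, adjusted p = 0.0312). MDH1, GOT2, PDHX, PDK1, PDK4, MPC2 and GLRX5 were not followed through the alternatives.

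**Figure D4:**
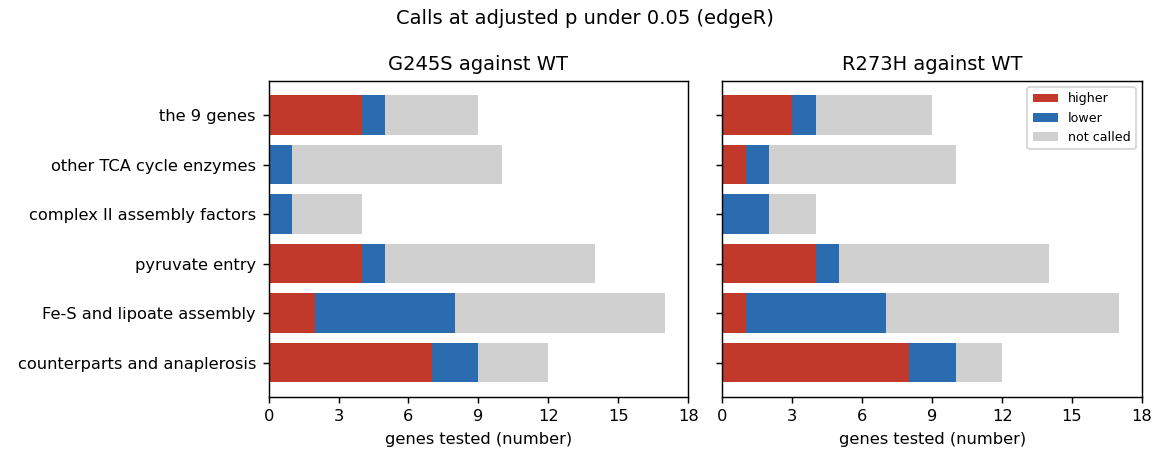
Number of genes tested (horizontal axis) that were higher (red), lower (blue) or not called (grey) in G245S (left) and R273H (right) against WT, for the 9 genes and 5 lists of related genes. By number, which depends on list size, the iron-sulfur and lipoate list has the most genes that fell in each mutant, 6 of 17. The counterparts and anaplerosis list has the most that rose, 7 and 8 of 12. Of all genes tested, 12.1% fell in G245S and 14.6% in R273H, and 12.6% and 14.2% rose. At the depth of the 9 genes, 49.6% and 55.1% were called in either direction. No share was taken at the depth of each list.

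CS, which had the smallest adjusted p of the 9 genes, was also set against 12084 other named genes that averaged 100 counts or more, by the root mean square difference in centred log2 CPM over the 9 libraries. The nearest were PAM (0.0149), TSFM (0.0168), TUBA1C (0.0175), TUFM (0.0178) and RACK1 (0.0187), beside a root mean square of 0.0878 for CS about its own mean.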

How the data were processed

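Ribosome-protected fragments of 9 dishes (3 groups of 3) had been sequenced. Per the study's methods and the submitters' processing notes, reads were handled with FastQC, Trim Galore, cutadapt, UMI-tools, SortMeRNA, STAR (GRCh38), SAMtools and MultiQC. The authors deposited 1 table of expected counts (estimated counts per gene, not scaled for depth or length). The counting tool, the annotation release and the handling of strand are not given in the sources used here. The groups come from the labels and each library from its column name, and each dish was taken as a replicate. Dishes of a group differed beyond counting noise (chi-square per degree of freedom 1.48 to 2.62). Of the 63241 genes, 62666 (99.09%) matched GENCODE v44. No gene was measured against a spike-in here, so each fold change is set against the rest of its library.

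After rounding, edgeR 4.0.16 (R 4.3.3) was run on the counts (TMM, filterByExpr, robust glmQLFit, glmQLFTest, two-sided) in 1 fit of all 9 libraries, which left 6 residual degrees of freedom. Benjamini-Hochberg adjustment ran over 19820 genes. TMM factors were 0.987 to 1.01. The fit was tested on simulated data. Alternatives were RLE and upper-quartile scaling, no filter, unrounded counts, DESeq2 1.42.0, only the 6 libraries compared, a replicate block, a spline trend (4 degrees of freedom) of coding length and GC content of each library removed, pseudogene counts added and each dish left out. Counts of every gene holding at least 10% of a member's windows were added in an alternative chosen after seeing the data.

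The members and lists were chosen with earlier results of these data known. All 9 members are named. From each other list, up to 3 genes called in at least 1 mutant were named by smallest adjusted p, and other genes (partners in an enzyme, genes behind small counts) were named after their values were seen. Some items are not reported here.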

Additional observations from a re-analysis of the deposited data

How the results depend on the processing

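Against WT, the calls of CS, IDH3A and FH kept their direction and their side of the threshold in both mutants under every alternative run, leave-one-out fits included. With the coding length and GC trend removed, 0 members were lower in either mutant and 6 were higher in R273H. SDHD in R273H against WT turned positive under upper-quartile scaling (0.005983), without the filter (0.00077), with the trend removed (0.087) and with named pseudogene counts added (0.0063). Without each dish in turn, SDHD lay between −0.0089 and 0.037 for G245S and between −0.024 and 0.0016 for R273H, and 0 to 1 members were lower in G245S.

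Between G245S and R273H, 513 genes were called (368 higher, 145 lower). Dish number as a replicate block gave 1262 (810 higher, 452 lower), the 1 member called then being CS. Against WT the replicate block added MDH2 in G245S (0.050, adjusted p = 0.0267, edgeR) and SDHB in R273H (0.067, adjusted p = 0.0191), and upper-quartile scaling added SDHB in R273H (0.083, adjusted p = 0.0374). Same-numbered dishes of different groups correlated at 0.042 to 0.23 over 12656 genes, and dishes with other numbers at −0.184 to 0.058. Of the same-number pairs 4 of 9 were over 0.1, and 9 of 9 libraries correlated best with their own number. The main fit did not take the numbers as pairs, and whether they mark a shared batch was not tested. The lower calls were 293 without the filter and 80 by DESeq2. Without each dish in turn, 162 to 712 genes were called (118 to 487 higher, 44 to 225 lower), the lowest without G245S dish 1. Also between the mutants, with the trend removed, IDH3A (0.0071), MDH2 (−0.011) and ISCU (−0.0038) changed sign, as did MDM2 without the filter (−0.0022) and by DESeq2 (−0.00011). Leave-one-out ranges were −0.030 to 0.010 for IDH3A, −0.00041 to 0.045 for SDHD, −0.0031 to 0.040 for PDHB and −0.039 to 0.038 for MDM2. The cause was not tested.

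With whole transcript length in place of coding length, the ratios to SDHA in WT, G245S and R273H were 3.07, 3.35 and 3.17 for SDHB, 3.598, 3.43 and 3.21 for SDHC and 1.32, 1.36 and 1.29 for SDHD. With 3 dishes per group, the 95% intervals of the genes that were not called set the size of change that could be missed.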
